A study of Caenorhabditis elegans with 24 samples.

Results

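The 10 genes followed here serve in handling hydrogen sulfide, cyanide and low oxygen, and were measured in arrested first-stage (L1) larvae of C. elegans. They are cysl-2 (K10H10.2), rips-1 (R08E5.3), nit-1 (ZK1058.6), sqrd-1 (F02H6.5), nhr-57 (T05B4.2), rhy-1 (W07A12.7), cyp-36A1 (C34B7.3), ethe-1 (C33A12.7), hif-1 (F38A6.3) and egl-9 (F22E12.4). Of 44968 gene identifiers counted they make up 10, and all 10 were among the 19050 genes that passed the filter on low counts. That filter kept genes above 1 CPM in no fewer than 4 libraries, where CPM is a gene's count scaled to a total of 1000000 reads on genes per library. The 10 genes were chosen by the transient rise of cysl-2 with food in larvae treated with ivermectin, that is, by the difference between IvF and IvS at 1 h and its loss at 24 h. Those differences are therefore given below as descriptions without a test. The difference between F and S comes from libraries that this choice did not use, and it was tested, although results of those libraries were also known when the genes were chosen. Its SE and adjusted p are not independent of the choice, since the spread was estimated in 1 fit of all 24 libraries, IvF and IvS included.

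All larvae were of strain LRB269, which carries mutations in 4 glutamate-gated chloride channel genes, glc-1(pk54), avr-15(vu227), avr-14(vu47) and glc-3(ok321), that make the animal resistant to ivermectin. It also carries the transgene dukIs10, in which Phlh-8::GFP and Pmyo-2::mCherry mark the animals and Pmyo-2::avr-15 returns 1 of the channels. The myo-2 promoter restores avr-15 in pharyngeal muscle, so the drug is meant to act on the pharynx and block eating while the larva can still sense bacteria. For this strain the paper's general methods give a higher dose than its sequencing methods and the sample labels do (5 ng/mL). In other cultures of the mutant transgenic background, the paper reports that larvae with ivermectin and HB101 took in no fluorescent beads. Eating was not measured in the cultures sequenced here, and how fully it was blocked in them was not tested. The mRNA of whole larvae was sequenced in 6 conditions of 4 libraries each, described in the study as biological replicates. F larvae received E. coli HB101 at 25 mg/mL without ivermectin and were collected 1 h later, and S larvae were kept without food and without ivermectin to the same hour. IvF larvae received ivermectin at 5 ng/mL and then the same food for 1 h or 24 h, and IvS larvae were held over both times with the drug but unfed. Every culture had first spent 24 h without food after bleaching, and cultures without the drug held its solvent, DMSO. Libraries without ivermectin carry replicate numbers 1 to 4. Libraries with it have other numbers and are called here by their titles, IF_1hr_181, IF_1hr_183, IF_1hr_185 and IF_1hr_186 for IvF at 1 h, the same with 24hr for IvF at 24 h, and I_ in place of IF_ for IvS, so the drug and the set of libraries cannot be told apart.

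HIF-1 is the transcription factor of the hypoxia response. With oxygen present, EGL-9 hydroxylates it and VHL-1 then marks it for destruction, whereas low oxygen or hydrogen sulfide spares it, the sulfide signal passing in C. elegans through CYSL-1, a protein that binds EGL-9 and is itself held in check by RHY-1. Genes switched on by HIF-1 include enzymes that detoxify sulfide and cyanide, cysl-2 among them, and rhy-1, which closes a negative feedback loop. No sulfide, cyanide or oxygen was measured here, and the levels below are of mRNA alone.

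Reads counted on genes ranged from 8690378 to 14139935 in the 8 libraries without ivermectin and from 14498061 to 19448998 in the 16 libraries with it. Reads assigned to no feature made up 2.67% to 3.71% of aligned reads in the first set and 4.39% to 11.3% in the second. Markers of intestine (elt-2), pharyngeal muscle (myo-2), body wall muscle (unc-54), neurons (unc-119) and hypodermis (dpy-7) were counted in every library, and the adult yolk gene vit-2 lay between 0.337 and 41.3 CPM. The glc-3 gene, deleted in the strain, had at most 1.87 CPM. Fewer cells that express a gene and less RNA per cell cannot be told apart in such whole-animal samples. Library IF_1hr_181 of IvF at 1 h stood apart from the other 3 of its condition for most of the 10 genes. Several, but not all, of the results that rest on it are given with and without it.

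Feeding for 1 h went with higher levels of 5 of the 10 genes. cysl-2 and rips-1, for an enzyme and an enzyme-like protein of sulfide and cyanide handling, rose most, followed by cyp-36A1, by nit-1, and by rhy-1 with the smallest rise. The regulators hif-1 and egl-9 differed little between F and S. A gene was called where the adjusted p of edgeR's quasi-likelihood test, corrected by Benjamini and Hochberg over all 19050 genes, was below 0.05 and the log2 fold change exceeded 0.5 in size. By this rule 5 of the 10 genes were higher in F than in S and 0 were lower, against 13.6% of all genes called higher and 15.4% called lower. The median log2 fold change was 0.97 over the 10 genes and -0.07 over all genes. At an unadjusted p below 0.05, 6 were higher and 1 was lower, and both DESeq2 and edgeR's exact test called 6 higher and 0 lower, with sqrd-1 as the sixth. Of the 5 tissue markers, elt-2 of the intestine was called higher in F than in S (log2 fold change 0.62, SE 0.19, adjusted p = 0.0130) and the other 4 were not called. The part of this in the result was not tested.

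**Figure D1:**
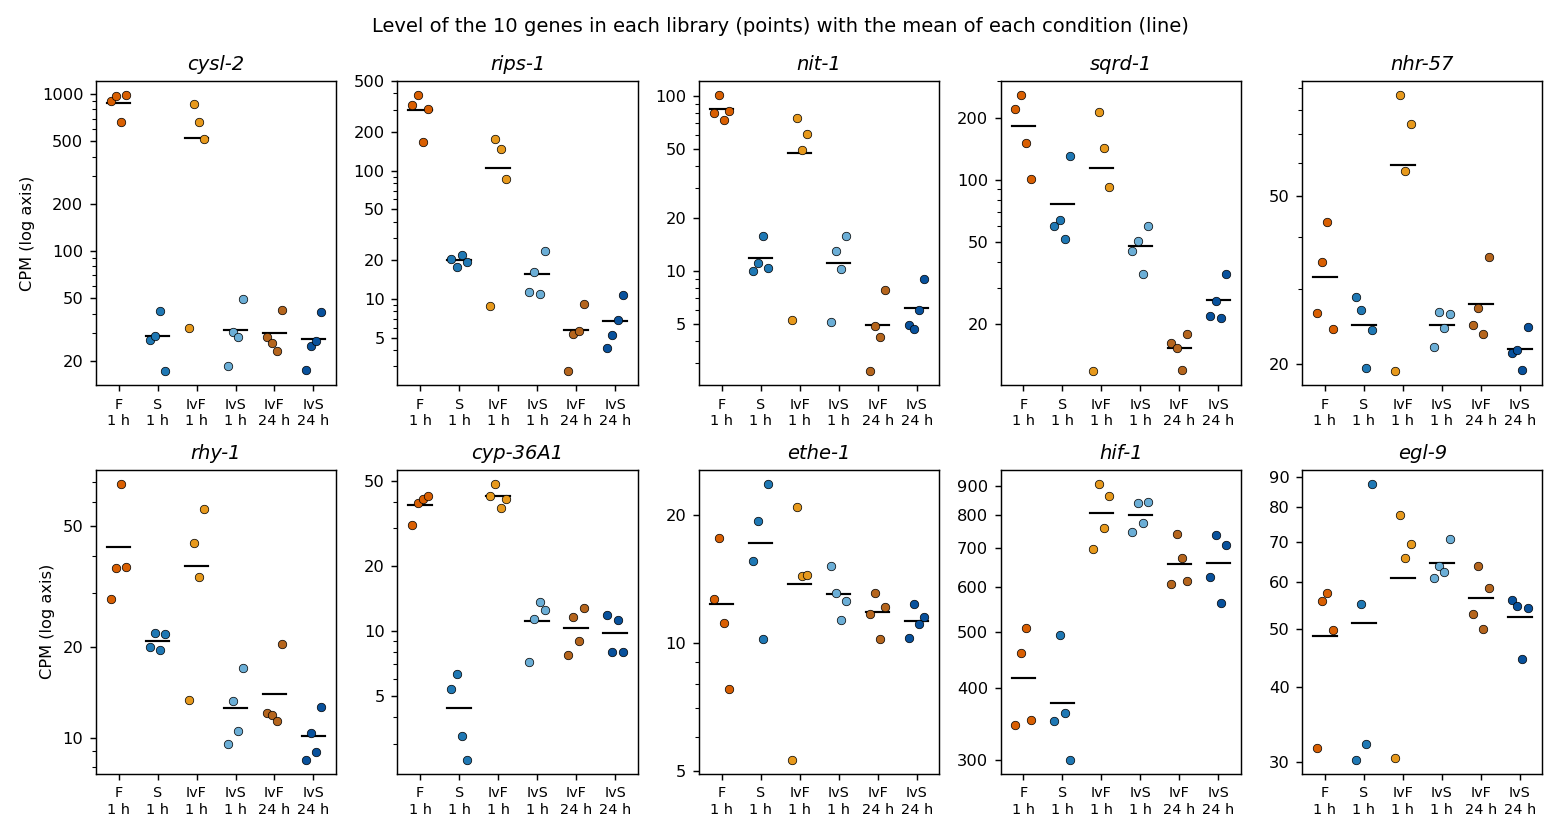
CPM of each of the 10 genes (log axis, 1 panel per gene) in the 4 libraries of each of 6 conditions, with the mean as a line. cysl-2 lies between 663 and 991 CPM in F and between 17.2 and 41.5 CPM in S, and 1 IvF library at 1 h (32.3 CPM) sits with the libraries without food.

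cysl-2 encodes a cysteine synthase-like enzyme that acts as a cyanoalanine synthase, joining cyanide to cysteine and releasing sulfide. It had 909, 973, 663 and 991 CPM in F replicates 1 to 4, against 27.2, 28.7, 41.5 and 17.2 CPM in S replicates 1 to 4. The lowest F library lay far above the highest S library. The fitted log2 fold change was 4.67 (SE 0.61, adjusted p = 3.05e-06), and over 18 other ways of fitting it ranged between 4.47 and 5.10. Per kilobase of exon, cysl-2 averaged 787 ± 135 CPM per kb in F, the highest of the 10 genes, and 25.5 ± 8.89 CPM per kb in S, where hif-1 with 127 ± 28.2 CPM per kb and sqrd-1 with 45.95 ± 21.8 CPM per kb were above it (SD, n = 4 each).

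rips-1 encodes a methyltransferase-like protein named for its interaction with RHY-1 in the sulfide response. Its levels were 323, 390, 167 and 304 CPM in F and 20.6, 17.7, 22.2 and 19.6 CPM in S, a log2 fold change of 3.66 (SE 0.55, adjusted p = 2.06e-05). The 4 S libraries lay within a narrow band, and F replicate 3, the lowest of its condition, was still above all of them. nit-1, which encodes a nitrilase, had 80.3, 101, 73.2 and 82.2 CPM in F and 9.97, 11.2, 15.9 and 10.4 CPM in S, a log2 fold change of 2.58 (SE 0.48, adjusted p = 0.000214). F replicate 3 was the lowest F library for cysl-2, rips-1 and nit-1 alike, and S replicate 3 was the highest S library for these 3 genes.

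sqrd-1 encodes sulfide:quinone oxidoreductase, the mitochondrial enzyme that starts sulfide oxidation, and ethe-1 encodes the persulfide dioxygenase that follows it. sqrd-1 had 220, 257, 151 and 101 CPM in F, against 59.5, 63.8, 52.0 and 130 CPM in S, so that S replicate 4 was above F replicate 4 and the groups overlapped. Its log2 fold change of 1.12 (SE 0.47, adjusted p = 0.0717) missed the threshold, with the spread estimated over all 24 libraries and not over F and S alone. Without S replicate 4 the value was 1.41 (adjusted p = 0.0496) and without F replicate 4 it was 1.35 (adjusted p = 0.0391), both past it. ethe-1 went the other way, with 12.7, 17.6, 11.2 and 7.79 CPM in F and 15.6, 19.3, 10.2 and 23.7 CPM in S, overlapping groups and a log2 fold change of -0.63 (SE 0.26, adjusted p = 0.0661). It passed the threshold without F replicate 2 (-0.80, adjusted p = 0.0320), while without F replicate 4 it was -0.43 (adjusted p = 0.241). S replicate 4 was the highest S library for sqrd-1, ethe-1 and egl-9, and the lowest for cysl-2.

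rhy-1, the feedback inhibitor, had 28.7, 36.3, 69.2 and 36.6 CPM in F and 19.9, 22.2, 19.4 and 22.0 CPM in S. All 4 F libraries were above all 4 S libraries, and F replicate 3 was far above the other 3. The log2 fold change was 0.83 (SE 0.28, adjusted p = 0.0246). The call rested on single libraries, since without F replicate 3 the value was 0.51 (adjusted p = 0.168), without S replicate 2 it was 0.79 (adjusted p = 0.0574) and without S replicate 4 it was 0.80 (adjusted p = 0.0570).

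cyp-36A1 encodes a cytochrome P450 reported to act downstream of HIF-1. It had 31.1, 39.2, 41.0 and 42.3 CPM in F, against 5.37, 6.33, 3.24 and 2.52 CPM in S, 2 tight groups far apart, with a log2 fold change of 2.92 (SE 0.24, adjusted p = 2.02e-09). Of the 10 genes it had the smallest adjusted p, although cysl-2 and rips-1 changed more. Their SEs, from the spread over all 24 libraries, were larger (0.61 and 0.55). nhr-57, a nuclear hormone receptor gene often used as a reporter of HIF-1 activity, did not follow it. Its levels of 26.3, 34.9, 43.3 and 24.1 CPM in F and 28.7, 26.7, 19.5 and 24.0 CPM in S overlapped (log2 fold change 0.18, SE 0.25, adjusted p = 0.646).

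The mRNA of the factor and of its hydroxylase showed little difference. hif-1 had 345, 461, 509 and 353 CPM in F and 351, 495, 362 and 300 CPM in S (log2 fold change -0.06, SE 0.18, adjusted p = 0.835). egl-9 had 31.7, 55.7, 57.6 and 49.8 CPM in F and 30.2, 55.1, 32.1 and 87.6 CPM in S (log2 fold change -0.21, SE 0.22, adjusted p = 0.510). The groups overlapped for both. Scaling by library totals alone, a choice made after seeing the data, turned the sign of hif-1 (0.14) and gave 6 genes higher and 0 lower, sqrd-1 being added, while it moved the median of all genes to 0.12. With that scaling 3438 genes of all tested were higher and 1970 lower, against 2599 and 2934 with TMM scaling.

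**Figure D2:**
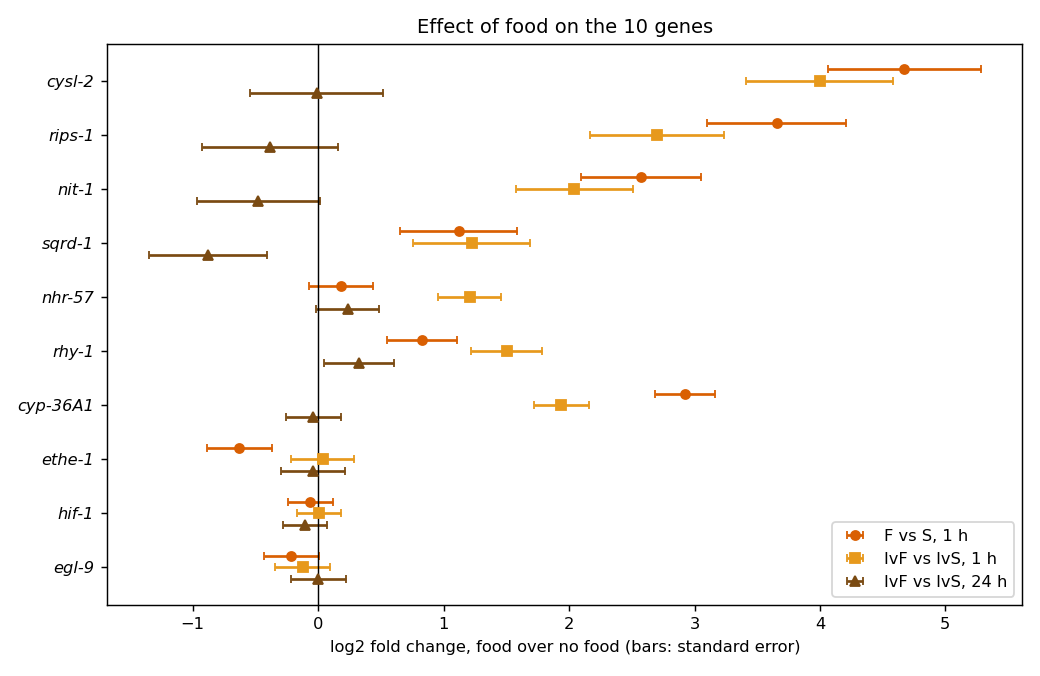
Fitted log2 fold change of each gene for food over no food, with its standard error as a bar, for F over S at 1 h (circles), IvF over IvS at 1 h (squares) and IvF over IvS at 24 h (triangles). cysl-2 is at 4.67, 4.00 and -0.01 in the 3 comparisons, and hif-1 and egl-9 stay near 0 in each.

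With ivermectin, the genes called in F over S also differed between IvF and IvS at 1 h, in the contrast that chose them. There nhr-57, which was not called in F over S, differed too. 6 of the 10 lay past the thresholds upward (cysl-2, rips-1, nit-1, nhr-57, rhy-1 and cyp-36A1) and 0 downward, against 3.27% of all genes upward. Nothing is read from this count, since the choice used the contrast. cysl-2 had 32.3, 869, 670 and 520 CPM in IF_1hr_181, IF_1hr_183, IF_1hr_185 and IF_1hr_186, against 18.5, 30.3, 28.4 and 49.3 CPM in the IvS replicates of the same numbers. Of the other 3 IvF libraries, IF_1hr_183 and IF_1hr_185 thus lay within the range of F larvae (663 to 991 CPM) and IF_1hr_186 lay below it. IF_1hr_181 was at the level of larvae without food. The log2 fold change of cysl-2 was 4.00 (SE 0.59) with all libraries, 4.38 without IF_1hr_181 and 3.55 without IF_1hr_183.

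The same split was seen in rips-1, nit-1 and sqrd-1. rips-1 had 8.84 CPM in IF_1hr_181 and 175, 147 and 85.5 CPM in the other 3, against 11.5, 16.2, 10.9 and 23.7 CPM in IvS. nit-1 had 5.24 CPM in IF_1hr_181 and 74.7, 48.8 and 60.7 CPM in the others, against 5.11, 13.0, 10.3 and 15.9 CPM in IvS. sqrd-1 had 11.9 CPM in IF_1hr_181 and 212, 142 and 92.0 CPM in the others, against 45.2, 50.6, 35.1 and 59.9 CPM in IvS. For each of these genes IF_1hr_181 was the lowest of the 4 IvF libraries and the other 3 were above every IvS library. ethe-1 was different, with 5.30 CPM in IF_1hr_181 and 20.9, 14.4 and 14.4 CPM in the others, against 15.1, 13.1, 11.3 and 12.6 CPM in IvS. IF_1hr_181 was again the lowest, but 2 of the other 3 lay within the range of IvS.

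nhr-57, which was not called in F over S, had 19.2 CPM in IF_1hr_181 and 86.9, 57.2 and 73.9 CPM in the other 3, against 21.9, 26.6, 24.3 and 26.2 CPM in IvS. rhy-1 had 13.3 CPM in IF_1hr_181 and 43.9, 33.8 and 57.2 CPM in the others, against 9.52, 13.2, 10.5 and 17.0 CPM in IvS. cyp-36A1 behaved differently from all of these. It had 42.5, 48.5, 37.5 and 41.2 CPM in IF_1hr_181, IF_1hr_183, IF_1hr_185 and IF_1hr_186, against 7.16, 11.3, 13.6 and 12.6 CPM in IvS, so that IF_1hr_181 was as high as the rest.

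**Figure D3:**
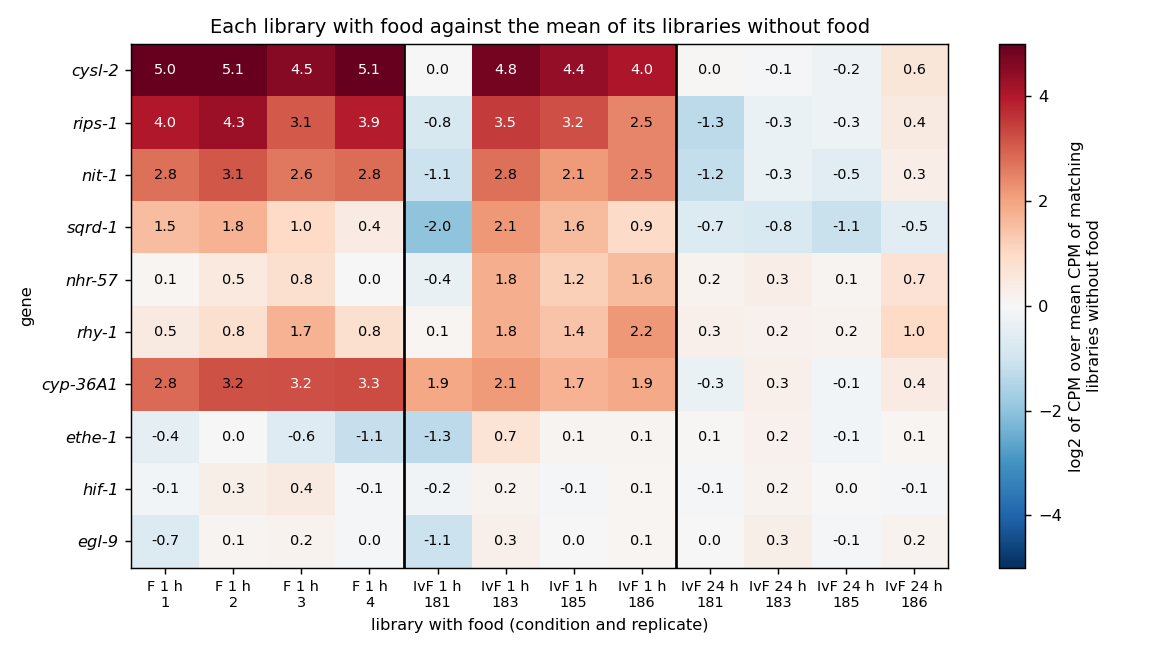
Each library with food (columns) for each gene (rows), as log2 of its CPM over the mean CPM of the 4 libraries without food of the same drug treatment and time. Library IF_1hr_181 is near or below 0 for 9 genes and clearly above 0 for cyp-36A1 alone, and the IvF libraries at 24 h are near or below 0 for most genes.

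In library IF_1hr_181, 1 of the 10 genes (cyp-36A1) was above all 4 IvS libraries and 6 were below all of them (rips-1, sqrd-1, nhr-57, ethe-1, hif-1 and egl-9). In IF_1hr_183 all 10 were above every IvS library, in IF_1hr_185 it was 7 and in IF_1hr_186 it was 8. The share over all genes was not counted, so nothing is read from these counts. They use CPM without TMM scaling, whose factors were 0.90 to 1.29 in IvF and 1.03 to 1.17 in IvS at 1 h, and small gaps such as those of hif-1 may reflect that. After the values of the 10 genes were seen, the same count was made over genes that feeding changed strongly. It asked how IF_1hr_181 stood more widely. Of 278 other genes called higher in F than in S with a log2 fold change above 2, 70.5% were above all IvS libraries in IF_1hr_181, against 77.7%, 90.7% and 90.3% in IF_1hr_183, IF_1hr_185 and IF_1hr_186. Of 418 other genes called lower with a log2 fold change below -2, 80.4% were below all IvS libraries in IF_1hr_181, against 79.9%, 60.1% and 52.6% in the others. Its share of reads outside features, 4.46%, was the lowest of the 4, which had 5.69%, 7.76% and 9.52% in IF_1hr_183, IF_1hr_185 and IF_1hr_186, and the part of this in the result was not tested. The contrast of IvF with IvS at 1 h also depended on the libraries fitted together, and a fit of those 8 libraries alone put 2 genes past the thresholds (rhy-1 and cyp-36A1), while leaving out IF_1hr_181 put 7 past them, with sqrd-1 added.

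At 24 h the levels in IvF and IvS lay close together. cysl-2 had 28.3, 25.9, 23.1 and 42.1 CPM in IvF, against 17.4, 24.8, 26.6 and 41.0 CPM in IvS, with overlapping groups and a log2 fold change of -0.01 (SE 0.53). cyp-36A1 had 7.70, 11.6, 8.95 and 12.8 CPM in IvF, against 11.9, 7.98, 11.3 and 7.96 CPM in IvS. sqrd-1 had 16.2, 15.3, 12.1 and 18.0 CPM in IvF, all below the 22.0, 26.0, 21.6 and 34.9 CPM of IvS, with a log2 fold change of -0.88 (SE 0.47). 0 of the 10 genes lay past the thresholds, against 0.777% of all genes in either direction, and nothing is read from this count, since the genes were chosen for the loss of the difference at 24 h.

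Within the larvae kept with food and ivermectin, 7 of the 10 genes were lower at 24 h than at 1 h by the thresholds, against 5.72% of all genes, again in libraries that the choice used. The log2 fold change for 24 h over 1 h was -4.12 (SE 0.59) for cysl-2, -4.20 (SE 0.57) for rips-1, -3.28 (SE 0.50) for nit-1, -2.89 (SE 0.50) for sqrd-1, -1.10 (SE 0.25) for nhr-57, -1.41 (SE 0.28) for rhy-1 and -2.11 (SE 0.22) for cyp-36A1. Without IF_1hr_181 the 7 genes were still past the thresholds, with -4.51 for cysl-2, -4.58 for rips-1, -3.64 for nit-1, -3.26 for sqrd-1, -1.36 for nhr-57, -1.65 for rhy-1 and -2.01 for cyp-36A1. rips-1 had 2.74 to 9.16 CPM in IvF at 24 h, below every IvS library at 1 h, and nit-1 had 2.69 to 7.80 CPM, overlapping the lowest of them. The difference of food effects between the times, the effect at 24 h minus the effect at 1 h, was past the thresholds downward for 3 genes (cysl-2, rips-1 and cyp-36A1), against 0.310% of all genes. It was 7 without IF_1hr_181, and leaving out any of the other 15 libraries gave 2, with rips-1 lost.

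Starvation with ivermectin for a further day, a contrast that the choice did not use although its libraries served as comparators, called 0 of the 10 genes in IvS at 24 h over 1 h by edgeR's quasi-likelihood test, against 5.24% of all genes in either direction. The median log2 fold change was -0.22 over the 10 genes and -0.02 over all genes. At an unadjusted p below 0.05, 1 gene was lower and 0 were higher, and both the exact test and DESeq2 called 0. rips-1 came nearest, with 4.12, 5.28, 6.85 and 10.7 CPM at 24 h, against 11.5, 16.2, 10.9 and 23.7 CPM at 1 h, so that every library at 24 h was below every library at 1 h (log2 fold change -1.12, SE 0.53, adjusted p = 0.271). sqrd-1 was likewise lower in each library, with 22.0, 26.0, 21.6 and 34.9 CPM at 24 h and 45.2, 50.6, 35.1 and 59.9 CPM at 1 h (log2 fold change -0.79, SE 0.47, adjusted p = 0.417). A fit of those 8 libraries alone called both genes lower. Of the tissue markers, myo-2 (-0.92) and unc-54 (-0.91) were called lower at 24 h, and the part of this in the result was not tested. cysl-2 did not pass in any fit, with a log2 fold change of -0.11 (SE 0.53, adjusted p = 0.956).

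The levels of cysl-2 over the 6 conditions were in the order F at 1 h (884 ± 152 CPM), IvF at 1 h (523 ± 357 CPM), IvS at 1 h (31.6 ± 12.9 CPM), IvF at 24 h (29.9 ± 8.44 CPM), S at 1 h (28.6 ± 9.99 CPM) and IvS at 24 h (27.5 ± 9.87 CPM), as mean and SD over 4 libraries each. The last 4 overlapped and did not differ beyond their spread, and F overlapped IvF at 1 h. The range of cysl-2 without fresh food or after a day with it was thus 17.2 to 49.3 CPM over 16 libraries.

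Ivermectin in starved larvae, tested as IvS over S at 1 h, went with higher hif-1 and cyp-36A1 and lower sqrd-1, rhy-1 and ethe-1. These 2 calls higher and 3 calls lower stand against 28.2% and 29.1% of all genes, so the 10 genes were called about as often as genes at large. The drug cannot be told apart from the set of libraries in this contrast, and its IvS libraries served as comparators in the choice. hif-1 had 748, 840, 773 and 841 CPM in IvS, all above the 351, 495, 362 and 300 CPM of S (log2 fold change 0.62, SE 0.18, adjusted p = 0.00509). cyp-36A1 was likewise above every S library in every IvS library (log2 fold change 0.88, SE 0.24, adjusted p = 0.00279). rhy-1 was below every S library in every IvS library (log2 fold change -1.21, SE 0.28, adjusted p = 0.000839).

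Markers of tissues differed in the same contrast, by the same test. myo-2 of pharyngeal muscle (log2 fold change 2.89, with 2720 to 3376 CPM in IvS and 180 to 437 CPM in S), unc-54 of body wall muscle (1.37) and elt-2 (0.58) were called higher. The neuronal unc-119 (-1.13) and the yolk genes vit-2 (-3.02), vit-5 (-2.39) and vit-6 (-2.54) were called lower, and dpy-7 was not called. The part of this in the result was not tested.

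The other 2 calls among the 10 genes, ethe-1 and sqrd-1, overlapped between IvS and S. ethe-1 had 15.1, 13.1, 11.3 and 12.6 CPM in IvS and 15.6, 19.3, 10.2 and 23.7 CPM in S (log2 fold change -0.81, SE 0.26, adjusted p = 0.00890). sqrd-1, with a log2 fold change of -1.10 (SE 0.47, adjusted p = 0.0457), was at -0.76 (adjusted p = 0.203) without S replicate 4, and its call was lost in 7 of 8 fits that left out 1 library. The scaling of the libraries bore on all of these, since TMM factors were 1.03 to 1.17 in IvS and 0.62 to 0.92 in S. With library totals alone, 2 genes were higher (hif-1 at 1.09 and cyp-36A1 at 1.35) and 0 were lower, rhy-1 at -0.73 (adjusted p = 0.0540) included, while the median of all genes moved to 0.49, against 0.04 with TMM. Over all genes that scaling gave 7623 calls higher and 3175 lower, against 5375 and 5535. Reads that fell on more than 1 gene made up 3.49% to 3.68% of aligned reads in IvS and 6.88% to 10.3% in S, and the part of this in the result was not tested.

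Among larvae with food, IvF over F at 1 h used libraries of the choice and is given as a description. 1 of the 10 genes was past the thresholds upward (hif-1, log2 fold change 0.68) and 2 downward (rips-1, -1.84, and nit-1, -1.17), against 33.1% and 27.7% of all genes, whose median was 0.13. With library totals alone that median was 0.41, and nit-1 at -0.83 was no longer past them while nhr-57 at 0.89 was. cysl-2 was at -1.09 (SE 0.53). Without IF_1hr_181 the values were -1.46 for rips-1, -0.81 for nit-1, -0.71 for cysl-2 and 0.66 for hif-1, and nhr-57 at 0.82 was past the thresholds too. The effect of food in F and S minus its effect in IvF and IvS at 1 h was past the thresholds upward for 1 gene, cyp-36A1 (0.98, SE 0.32), against 5.31% of all genes. Its value lay between 0.79 and 1.2 over 25 other fits, but leaving out single libraries took its adjusted p over the threshold in 11 of 16 cases. These comparisons share libraries with those above.

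Some of the 10 genes also varied together within conditions. The deviation of each library from the mean of its condition was taken in log2(CPM + 1). Over 24 libraries, Pearson's r of cysl-2 was 0.94 with nit-1, 0.93 with rips-1, 0.80 with sqrd-1, 0.79 with nhr-57 and 0.71 with rhy-1. It was 0.57 with ethe-1, 0.42 with egl-9, 0.29 with hif-1 and 0.11 with cyp-36A1. These are descriptions, and the points share library depth and scaling. Without IF_1hr_181, over 23 libraries, r stayed at 0.77 with nit-1 and 0.74 with rips-1. It was 0.17 with sqrd-1, 0.13 with nhr-57, 0.25 with rhy-1, 0.27 with cyp-36A1 and 0.14 with hif-1. With ethe-1 (-0.21) and egl-9 (-0.27) it turned negative. Away from IvF at 1 h, I_1hr_186 was the highest IvS library at 1 h for 7 of the 10 genes, IF_24hr_186 the highest IvF library at 24 h for 7 and I_24hr_186 the highest IvS library at 24 h for 6. cysl-2, rips-1, nit-1, sqrd-1 and rhy-1 were among them each time. The share of reads outside features was 7.90% in I_1hr_186 and 11.3% in IF_24hr_186, each the highest of its 4 libraries, and 4.39% in I_24hr_186, the lowest of its 4. The part of this in the result was not tested.

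Among 11111 other genes averaging at least 5 CPM, the 5 whose pattern over the 24 libraries was most like that of cysl-2, after centring the libraries with and without ivermectin separately, were F21D5.3 (r = 0.92), mpst-3 (0.92), F08F3.4 (0.91), C31H2.4 (0.90) and tph-1 (0.90). mpst-3 encodes a mercaptopyruvate sulfurtransferase homolog and tph-1 the tryptophan hydroxylase of serotonin synthesis. F21D5.3 had 86.7 to 168 CPM in F, against 10.2 to 24.5 CPM in S, and its 21.8 CPM in IF_1hr_181 stood beside 86.3, 74.4 and 43.4 CPM in IF_1hr_183, IF_1hr_185 and IF_1hr_186. tph-1 had 10.1 CPM in IF_1hr_181 and 13.3, 12.9 and 15.7 CPM in the others, against 5.17 to 6.62 CPM in IvS, and so was not low there. With TMM-scaled CPM, 2 of these 5 genes were still among the 5 most alike.

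**Figure D4:**
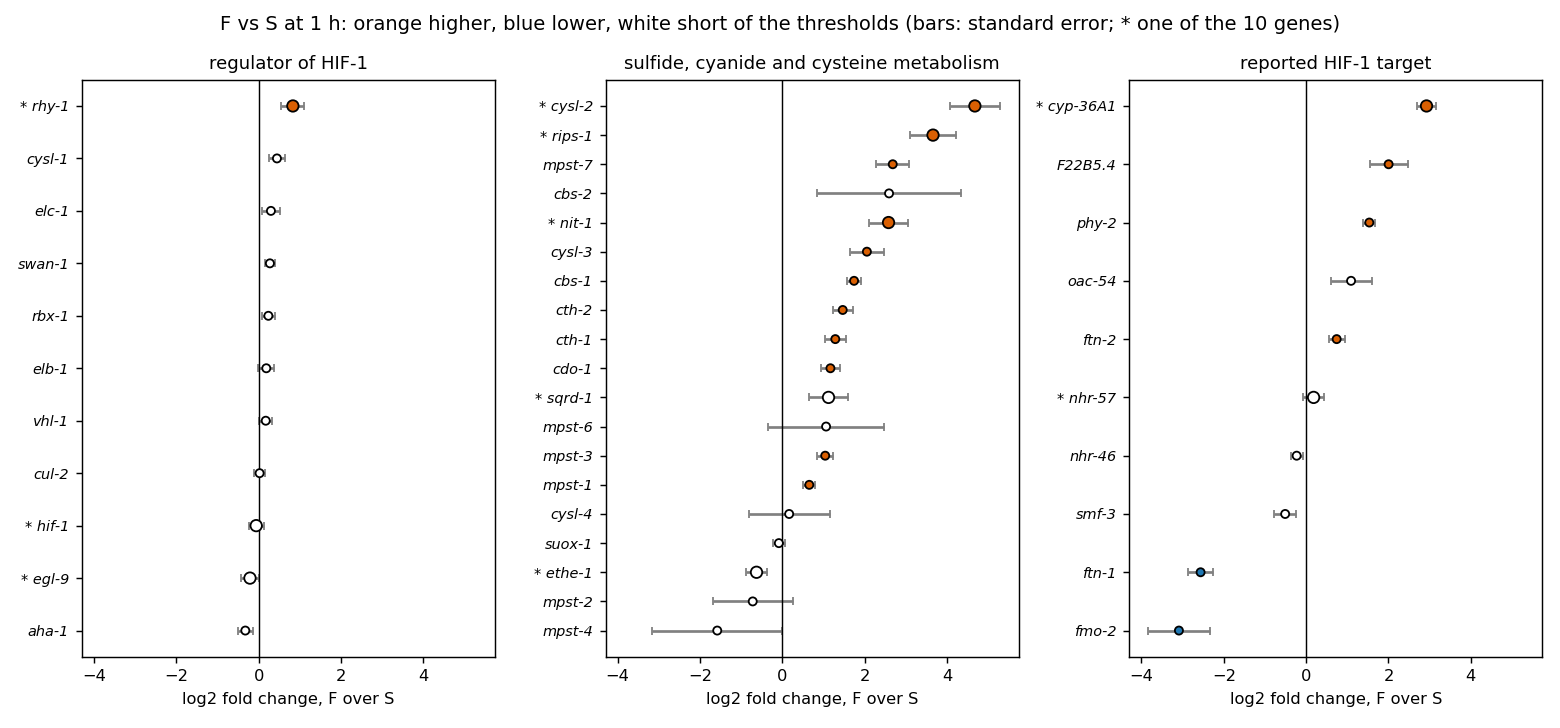
Fitted log2 fold change of F over S at 1 h, with its standard error as a bar, for the measured genes of 3 lists, regulators of HIF-1, sulfide, cyanide and cysteine metabolism, and reported HIF-1 targets. Filled points passed the thresholds and starred genes are among the 10. In the metabolism list every filled point lies to the right of 0, and the 2 lowest filled points are ftn-1 (-2.56) and fmo-2 (-3.09) among the targets.

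Of 32 further genes on these lists, 30 were matched and tested in F over S, of which 11 were higher and 2 lower, with a median log2 fold change of 0.37 beside -0.07 for all genes. In the list of sulfide, cyanide and cysteine metabolism 8 of 14 were higher and 0 lower. Its genes cysl-4, mpst-2, mpst-4, mpst-6 and cbs-2 averaged below 1 CPM in both F and S, so a call was unlikely for them. Over all genes 13.6% were called higher and 15.4% lower in this comparison. mpst-7, a mercaptopyruvate sulfurtransferase homolog, was at 2.68 on the log2 scale (SE 0.40, adjusted p = 1.25e-05), but at low levels, with a mean of 5.86 ± 0.646 CPM in F and 0.761 ± 0.456 CPM in S (SD, n = 4 each). cbs-1, a cystathionine beta-synthase that can make hydrogen sulfide, averaged 111 ± 36.3 CPM in F and 29.5 ± 11.2 CPM in S (log2 fold change 1.74, SE 0.18, adjusted p = 3.96e-08). cysl-3, a cysteine synthase-like gene, averaged 139 ± 43.5 CPM in F and 29.9 ± 10.1 CPM in S (log2 fold change 2.05, SE 0.42, adjusted p = 0.000554), and its exons share 74 bases with those of rips-1 on the opposite strand.

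Among regulators of HIF-1, 0 of 8 other genes were called in either direction by the quasi-likelihood test. cysl-1, the sulfide sensor that binds EGL-9, had 113 to 154 CPM in F and 67.7 to 108 CPM in S, groups that did not overlap, yet its log2 fold change of 0.44 (SE 0.19, adjusted p = 0.0780) did not pass. With library totals alone, 1 of the 8 was called higher. vhl-1, which marks hydroxylated HIF-1 for destruction, was at 0.17 (SE 0.16, adjusted p = 0.466). Of 8 other reported HIF-1 targets 3 were higher and 2 lower. F22B5.4, a gene induced by hypoxia, averaged 41.2 ± 21.0 CPM in F and 8.86 ± 3.60 CPM in S, with 1 F library at 9.88 CPM among the S levels (log2 fold change 2.0, SE 0.46, adjusted p = 0.00179).

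Outside the rule for named genes, and chosen after their values were seen, the other 2 targets called higher were phy-2, a subunit of collagen prolyl hydroxylase, at 1.53 (SE 0.15, adjusted p = 1.67e-08), and ftn-2, a ferritin, at 0.74 (SE 0.19, adjusted p = 0.00435). The 2 targets that fell were ftn-1, an iron storage ferritin, and fmo-2, a flavin-containing monooxygenase. The list does not separate targets that HIF-1 raises from those it lowers, so no HIF-1 activity is read from these directions. ftn-1 had 6.84 to 15.9 CPM in F, below the 37.6 to 64.7 CPM of S (log2 fold change -2.56, SE 0.31, adjusted p = 5.64e-07). fmo-2 had 1.62 to 14.6 CPM in F and 0.915 to 114 CPM in S, overlapping groups in which S varied widely (log2 fold change -3.09, SE 0.75, adjusted p = 0.00287).

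The library kit did not mark strand, and several of the 10 genes share exon bases with a neighbour, so that reads from the shared part cannot be assigned to either. The overlap is 36 bases with vnut-1 for cysl-2, 74 with cysl-3 for rips-1, 93 with ZK1058.9 for nit-1, 82 with W07A12.8 for rhy-1, 147 with figo-1 for cyp-36A1 and 16 with lgc-1 for nhr-57, by the Ensembl annotation, which is a later version than that of the counts. vnut-1 stayed between 18.3 and 39.9 CPM in every library while cysl-2 ranged over 17.2 to 991 CPM. ZK1058.9 averaged 38.0 CPM in F and 58.6 CPM in S, opposite in direction to nit-1, and figo-1 averaged 26.2 CPM in F and 25.5 CPM in S. W07A12.8 had a higher mean in F (3.21 CPM) than in S (1.27 CPM), as rhy-1 did, and cysl-3 moved with rips-1.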

How the data were processed

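RNA of whole LRB269 larvae was sequenced in 24 libraries. The authors mapped reads with Bowtie (1.1.2 in the submitters' processing notes) to the WS210 genome with WS220 transcripts, and counted them per gene with HTSeq, whose mode and version are not given in the sources used here. The deposited files hold those raw counts. HTSeq's 5 totals per file, of which reads on no feature were 2.67% to 11.3% of aligned reads, stayed out of library sizes and tests. CPM are counts scaled to 1000000 reads on genes, without TMM scaling. Tests used edgeR 4.0.16 in R 4.3.3: TMM scaling, 1 quasi-likelihood fit of 6 condition means over 24 libraries, genes above 1 CPM in at least 4 libraries, Benjamini-Hochberg adjustment. Alternatives were edgeR's exact test, DESeq2 1.42.0, its size factors, other filters, a replicate block, fits of the compared libraries, a covariate for reads counted on no feature, no fold threshold, and each library left out. Library totals without TMM were added after the data were seen. The test was checked on simulated data in which every gene had the same dispersion and only F differed. That check does not cover genes as variable as cysl-2 was in IvF at 1 h. The 10 genes and the pathway lists were chosen with earlier results of these data known. Values were printed for all 10 genes, for the 6 list genes with the largest called change in F over S, for cysl-1 and vhl-1, and for the 5 genes most like cysl-2. Sequence names were paired with symbols, and exon lengths and overlaps taken, from Ensembl release 115 (WBcel235), and 44443 of 44968 matched. No 2 libraries of a condition agreed within sampling noise. Deviations of same-numbered libraries correlated above 0.1 in all 4 pairs of IvF at 24 h and 1 h (r from 0.16 to 0.75), and not in all pairs of the other 4 sets. The numbers were therefore taken to pair in that set alone. This pairing is uncertain, since 3 of its 4 libraries correlated best with their own number, as 3 of 4 did in F and S. The main fit took no account of it.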

Additional observations from a re-analysis of the deposited data

Results flagged for a closer look

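Over 60 sets of 4 libraries, 1 for each gene and condition, 3 held a library far from the other 3, and chance gives about 1 in 20. sqrd-1 had 130.1 CPM in S replicate 4 at 1 h. rhy-1 had 20.4 CPM in IF_24hr_186. egl-9 had 44.5 CPM in I_24hr_185. The low levels of the sulfide genes in IF_1hr_181 were not picked out in this way, because the other 3 libraries spread widely.

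The effect of food differed between times in larvae with ivermectin, as the effect at 24 h minus that at 1 h, by -4.01 on the log2 scale for cysl-2, -3.09 for rips-1 and -1.98 for cyp-36A1, in the contrast that chose the genes. The effect of food without ivermectin exceeded that with it by 0.98 for cyp-36A1. Its level differed mainly between the starved groups (0.88 for IvS over S, against -0.11 for IvF over F). The drug and the set of libraries cannot be told apart here, and leaving out single libraries lost the call in 11 of 16 cases.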

How the results depend on the processing

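None of the fold changes of the 10 genes that passed the thresholds changed sign under any alternative run. In F over S, the 5 calls held in 87 of 90 refits, and the 3 losses were of rhy-1. In IvS over S, 71 of 85 held, and the 14 losses were of sqrd-1 except those of rhy-1 and ethe-1 with library totals. A mean filter of 5 CPM called 1 gene lower in F over S and put 2 genes upward and 1 downward in IvF over F, and 1 downward in the difference of food effects by ivermectin, where DESeq2 also had 1. For IvF over F the exact test gave 2 upward and 4 downward, DESeq2 and its size factors gave 2 upward, no filter gave 2 upward and 1 downward, library totals gave 2 upward and 1 downward, and a fit of those libraries alone gave 0 downward. DESeq2 gave 5 downward for the difference between times. The difference by ivermectin had 0 upward with no filter, with the replicate block and with the compared libraries alone. Fits of the compared libraries alone gave 2 upward in IvF over IvS at 1 h and 2 lower in IvS at 24 h over 1 h, and library totals gave 0 lower in IvS over S. The causes were not tested. With single libraries left out, counts ranged over 0 to 1 lower in F over S, 1 to 2 upward and 1 to 4 downward in IvF over F, 2 to 7 downward in the difference between times, and 0 to 1 upward and 0 to 1 downward in the difference by ivermectin. Of 5 sets of same-numbered libraries, every pair correlated above 0.1 in 1, IvF at 24 h and 1 h, where a replicate block left the 7 genes past the thresholds. Over the sets 11 of 20 pairs did so (r from -0.47 to 0.75), and 10 correlated best with their own number. A replicate block moved calls over all genes from 5533 to 5874 in F over S and from 998 to 1654 in IvS at 24 h over 1 h, kept the 5 calls of F over S, and left 2 lower in IvS over S. hif-1 in IvF over F moved to 0.94 with the mean filter and 0.96 with library totals.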
